A study of Homo sapiens with 18 samples.

Results

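The genes described here are 10 transcription factors that set and hold B cell identity, chosen by name: PAX5, EBF1, IKZF1, SPI1, SPIB, IRF8, POU2F2, POU2AF1, BCL6 and BACH2. All 10 were found in each of the 3 deposited tables, among 17561 genes listed in any of them. Messenger RNA was profiled in BL-41, Namalwa and Jiyoye, established lines of Burkitt lymphoma, a MYC-driven cancer of germinal centre B cells. A lentiviral vector (pRSI12-U6-shUbiC-TagRFP) carried either a FOXO3 shRNA, a hairpin RNA that lowers FOXO3 messenger RNA, or a scrambled shRNA with no such target. Infected cells were sorted 4 days later. Each line had a FOXO3 shRNA group and a scrambled shRNA group of 3 libraries, which makes 6 groups and 18 libraries. Namalwa and Jiyoye carry Epstein-Barr virus and BL-41 does not. All groups, also those with scrambled shRNA, were infected with this vector, so uninfected cells are not part of the comparison. The labels speak of triplicates without naming separate cultures, so a p-value here reflects the spread between libraries, and that spread may be technical.

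These factors act as a network. EBF1 and PAX5 commit a progenitor to the B lineage, and IKZF1 (Ikaros) works before and beside them. SPI1 (PU.1) and SPIB are closely related ETS proteins that bind the same kind of site, often together with an interferon regulatory factor such as IRF8. POU2F2 (Oct-2) binds the octamer element of immunoglobulin promoters, and POU2AF1 (OCA-B, also BOB.1) is its B cell coactivator. BCL6 and BACH2 are repressors that hold the germinal centre state, from which Burkitt lymphoma arises, and keep PRDM1, the master regulator of plasma cells, low.

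Each deposited table gives 1 normalized value per arm and gene, which is the authors' value and has no spread between libraries, and a log2 fold change of FOXO3 shRNA over scrambled shRNA that was moderated towards 0. The median standard error (SE) of the fold change over genes with a mean value of at least 100 was 0.144 for BL-41, 0.127 for Namalwa and 0.149 for Jiyoye. A gene is called when its adjusted p by the authors' DESeq2 test over all genes is under 0.05. FOXO3 itself fell in BL-41 and Namalwa and was not called in Jiyoye, and its log2 fold change there was -0.30, beside -0.79 in BL-41 and -1.09 in Namalwa, in the authors' deposited table. Of 16 B cell markers 15 were measured in each line, and all 15 in BL-41 and Namalwa and 14 in Jiyoye had a mean value of at least 100.

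Of the 10 factors 7 fell in BL-41, 0 rose (0 also at an unadjusted p under 0.05, DESeq2) and 3 were not called. Over all 16001 genes tested in BL-41, 14.2% fell and 28.7% were called in either direction. Over the 9884 genes whose mean value reached 100, 20.7% fell and 40.7% were called. The median log2 fold change of the 10 factors was -0.59 in BL-41, beside 0.020 over all genes tested, from the authors' deposited table. The falls were largest for SPIB, POU2AF1 and IRF8, and PAX5, IKZF1 and BCL6 were the factors that were not called. In Namalwa 1 of the 10 factors fell (SPIB), 0 rose (1 at an unadjusted p under 0.05, DESeq2) and 9 were not called, beside 15365 genes of which 3.81% fell, 2.60% rose and 6.41% were called. Of the 9671 genes whose mean reached 100 in Namalwa, 5.76% fell, 3.85% rose and 9.61% were called. Jiyoye was mixed, with 3 factors that fell (SPIB, POU2AF1, IRF8) and 2 that rose (IKZF1, POU2F2), beside 16787 genes of which 8.70% fell, 8.69% rose and 17.4% were called. Of the 10122 genes whose mean reached 100 in Jiyoye, 12.8% fell, 12.7% rose and 25.5% were called. The median was -0.18 in Namalwa, beside -0.0011 over all genes tested, and 0.21 in Jiyoye, beside 0.0084, from the authors' deposited table. Without the 3 factors whose mean in Jiyoye was under 100 (EBF1, BACH2 and BCL6), the Jiyoye median was -0.16.

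**Figure D1:**
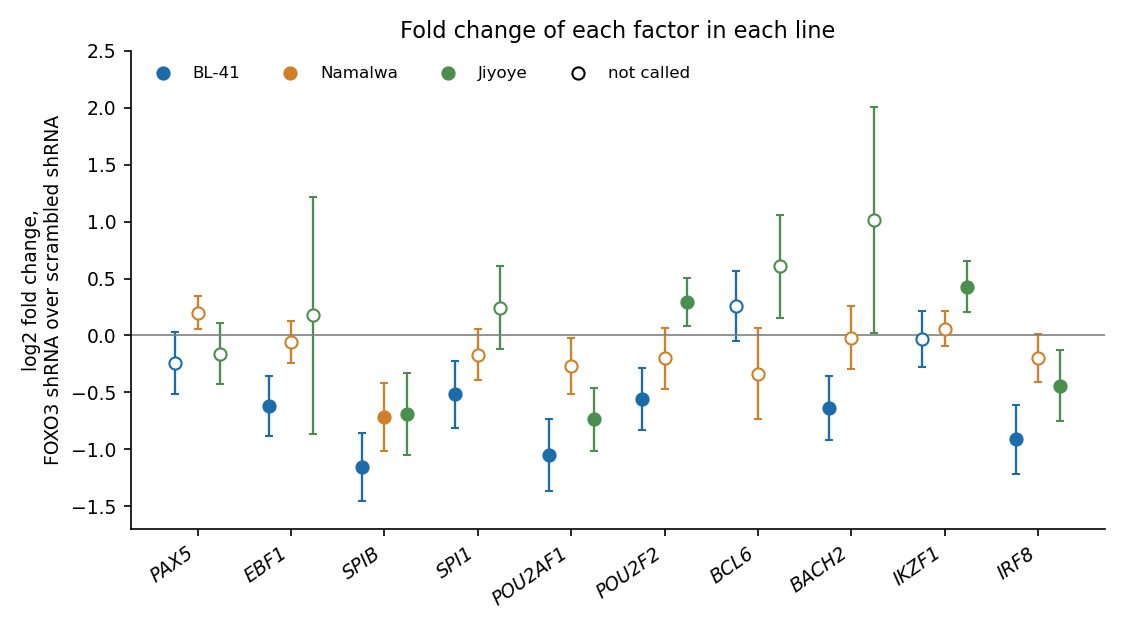
Log2 fold change (FOXO3 shRNA over scrambled shRNA) of each of the 10 factors in BL-41, Namalwa and Jiyoye, with 95% intervals from the recovered SE. Filled points were called by the authors' DESeq2 test and open points were not, and SPIB is the factor with filled points below 0 in all 3 lines.

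SPIB was the factor that fell in every line. Its value in BL-41 was 1774 with FOXO3 shRNA, against 3949 with scrambled shRNA, a log2 fold change of -1.15 (SE 0.15, adjusted p = 3.72e-12 by DESeq2) in the authors' deposited table. In Namalwa SPIB had 1764 with FOXO3 shRNA and 2899 with scrambled shRNA, a log2 fold change of -0.72 (SE 0.15, adjusted p = 0.000182 by DESeq2) in the authors' deposited table. In Jiyoye SPIB stood at 707.2 with FOXO3 shRNA and 1138 with scrambled shRNA, a log2 fold change of -0.69 (SE 0.18, adjusted p = 0.00242 by DESeq2) in the authors' deposited table. SPIB thus lost 55.1%, 39.1% and 37.8% of its scrambled value in BL-41, Namalwa and Jiyoye. Over the 14549 genes listed in all 3 tables, 263 (1.81%) fell in every line. In each line few genes with a mean of at least 100 had a lower fold change than SPIB (1.43% for BL-41, 1.23% for Namalwa and 4.57% for Jiyoye). The falls of SPIB did not differ between lines past the test. BL-41 minus Namalwa was -0.44 (95% interval -0.86 to -0.017, adjusted p = 0.233, z test) and BL-41 minus Jiyoye -0.47 (-0.94 to -0.00067, adjusted p = 0.265). Namalwa minus Jiyoye was -0.030 (-0.50 to 0.44, adjusted p = 0.985).

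SPI1, the relative of SPIB, did not follow it in every line. In BL-41 SPI1 fell, with 1343 under FOXO3 shRNA and 1921 under scrambled shRNA, a log2 fold change of -0.52 (SE 0.15, adjusted p = 0.00366 by DESeq2) in the authors' deposited table. In Namalwa SPI1 had 1313 with FOXO3 shRNA and 1477 with scrambled shRNA and was not called (-0.17, SE 0.11, adjusted p = 0.512 by DESeq2) in the authors' deposited table. In Jiyoye the SPI1 value was 594.1 with FOXO3 shRNA, above the 502.1 with scrambled shRNA, and was not called either (0.24, SE 0.19, adjusted p = 0.45 by DESeq2) in the authors' deposited table. The SPI1 effect in BL-41 was lower than that in Jiyoye by the test of the difference (-0.76, 95% interval -1.23 to -0.29, adjusted p = 0.0312). Levels per length are values divided by the deposited gene length, in ppm of the line's total of such values over both arms. On this scale SPI1 was above SPIB in each arm, with a level of 103 ppm for SPI1 and 55.2 for SPIB with FOXO3 shRNA in BL-41, and 147 and 123 with scrambled shRNA.

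IRF8, the interferon regulatory factor of the germinal centre, fell in BL-41 and Jiyoye. The IRF8 values in BL-41 were 1649 with FOXO3 shRNA and 3101 with scrambled shRNA, a log2 fold change of -0.91 (SE 0.15, adjusted p = 9.84e-08 by DESeq2) in the authors' deposited table. For Namalwa IRF8 was 1942 with FOXO3 shRNA and 2229 with scrambled shRNA and was not called (-0.20, SE 0.11, adjusted p = 0.333 by DESeq2) in the authors' deposited table. For Jiyoye IRF8 was 635.3 with FOXO3 shRNA and 862.4 with scrambled shRNA, a log2 fold change of -0.44 (SE 0.16, adjusted p = 0.0375 by DESeq2) in the authors' deposited table. The IRF8 effect was lower in BL-41 than in Namalwa (-0.71, 95% interval -1.08 to -0.34, adjusted p = 0.00617), while BL-41 minus Jiyoye (-0.47, -0.91 to -0.035, adjusted p = 0.213) did not pass. SPI1 and IRF8 are also factors of myeloid cells. Of 11 measured myeloid markers in BL-41, 3 rose (LYZ, CD14 and CD68) and 0 fell (1 at an unadjusted p under 0.05, DESeq2), of 12 in Namalwa 0 rose and 0 fell (0 in each direction at an unadjusted p under 0.05, DESeq2), and of 13 in Jiyoye 3 rose (CEBPB, CEBPA and CD14) and 0 fell (0 at an unadjusted p under 0.05, DESeq2). Over all genes 14.5%, 2.60% and 8.69% rose in BL-41, Namalwa and Jiyoye. CD14 was low, with 26.7 under FOXO3 shRNA and 5.25 under scrambled shRNA in BL-41, and 14.2 and 5.66 in Jiyoye. In Jiyoye 6 of the myeloid markers lay above 0 and 7 below, with a median log2 fold change of -0.093. The summed level of that list was 80.7 ppm with FOXO3 shRNA and 79.5 with scrambled shRNA in BL-41, 55.7 and 52.2 in Namalwa, and 58.1 and 47.6 in Jiyoye. ELANE, S100A8, S100A9 and CEBPA were not listed in BL-41, and TYROBP, a myeloid adaptor, had a value of 0.794 with FOXO3 shRNA and 0.845 with scrambled shRNA there. The part of myeloid genes in the SPI1 and IRF8 values was not tested. In a bulk library fewer cells of a kind and less RNA per cell cannot be told apart.

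The octamer pair split in Jiyoye. POU2AF1, the coactivator, fell in BL-41 with 3071 under FOXO3 shRNA and 6369 under scrambled shRNA, a log2 fold change of -1.05 (SE 0.16, adjusted p = 2.72e-09 by DESeq2) in the authors' deposited table. POU2AF1 fell in Jiyoye as well, with 4363 under FOXO3 shRNA and 7267 under scrambled shRNA (-0.74, SE 0.14, adjusted p = 6.03e-06 by DESeq2) in the authors' deposited table. In Namalwa POU2AF1 had 6467 with FOXO3 shRNA and 7788 with scrambled shRNA, which was not called (-0.27, SE 0.13, adjusted p = 0.236 by DESeq2) in the authors' deposited table. The POU2AF1 effect was lower in BL-41 than in Namalwa (-0.78, 95% interval -1.19 to -0.38, adjusted p = 0.0056), and Namalwa minus Jiyoye (0.47, 0.097 to 0.84, adjusted p = 0.196) did not pass. POU2F2, the DNA-binding partner, fell in BL-41, with 5105 under FOXO3 shRNA and 7514 under scrambled shRNA (-0.56, SE 0.14, adjusted p = 0.000414 by DESeq2) in the authors' deposited table. POU2F2 rose in Jiyoye, with 3778 under FOXO3 shRNA and 3090 under scrambled shRNA (0.29, SE 0.11, adjusted p = 0.0417 by DESeq2) in the authors' deposited table. In Namalwa POU2F2 had 6065 with FOXO3 shRNA and 6969 with scrambled shRNA and was not called (-0.20, adjusted p = 0.52 by DESeq2) in the authors' deposited table. The POU2F2 effects of BL-41 and Jiyoye thus had opposite signs, and their difference was -0.85 (95% interval -1.19 to -0.51, adjusted p = 0.000159).

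Of the commitment factors, EBF1 fell in BL-41 and PAX5 was not called in any line. EBF1 in BL-41 had 1226 under FOXO3 shRNA and 1886 under scrambled shRNA, a log2 fold change of -0.62 (SE 0.13, adjusted p = 4.12e-05 by DESeq2) in the authors' deposited table. In Namalwa EBF1 was nearly level, with 1371 under FOXO3 shRNA and 1425 under scrambled shRNA (-0.055, SE 0.094, adjusted p = 0.865 by DESeq2) in the authors' deposited table. The EBF1 effect was lower in BL-41 than in Namalwa (-0.57, 95% interval -0.89 to -0.25, adjusted p = 0.0143). The PAX5 values with FOXO3 shRNA and with scrambled shRNA were 8500 and 10048 in BL-41, 9363 and 8144 in Namalwa, and 4185 and 4674 in Jiyoye. The PAX5 log2 fold changes were -0.24 (SE 0.14), 0.20 (SE 0.076) and -0.16 (SE 0.14) in the authors' deposited table, with adjusted p from 0.0951 to 0.515 by DESeq2. IKZF1 had 2593 with FOXO3 shRNA and 2649 with scrambled shRNA in BL-41, and 11016 and 10559 in Namalwa. It was not called in either line, where the authors' deposited table gives -0.031 (SE 0.13) and 0.061 (SE 0.080). In Jiyoye IKZF1 rose, with 6047 under FOXO3 shRNA and 4490 under scrambled shRNA (0.43, SE 0.11, adjusted p = 0.00235 by DESeq2) in the authors' deposited table. The IKZF1 difference of BL-41 minus Jiyoye (-0.46, 95% interval -0.79 to -0.13, adjusted p = 0.0804) did not pass, nor did that of Namalwa minus Jiyoye (-0.37, adjusted p = 0.152).

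Of the germinal centre repressors, BACH2 fell in BL-41 and BCL6 was not called in any line. BACH2 in BL-41 had 4303 with FOXO3 shRNA and 6688 with scrambled shRNA, a log2 fold change of -0.64 (SE 0.14, adjusted p = 0.000106 by DESeq2) in the authors' deposited table. In Namalwa BACH2 had 4779 with FOXO3 shRNA and 4845 with scrambled shRNA, a log2 fold change of -0.020 (SE 0.14, adjusted p = 0.97 by DESeq2) in the authors' deposited table. The BACH2 effect was lower in BL-41 than in Namalwa (-0.62, 95% interval -1.01 to -0.22, adjusted p = 0.0368). BCL6 in BL-41 had 3407 with FOXO3 shRNA and 2847 with scrambled shRNA (0.26, SE 0.16, adjusted p = 0.232 by DESeq2) in the authors' deposited table. In Namalwa BCL6 had 800.2 with FOXO3 shRNA and 1010 with scrambled shRNA (-0.34, SE 0.20, adjusted p = 0.432 by DESeq2) in the authors' deposited table. In Jiyoye BCL6 had 103.1 with FOXO3 shRNA and 67.7 with scrambled shRNA (0.61, SE 0.23, adjusted p = 0.0507 by DESeq2) in the authors' deposited table, just outside the threshold. BCL6 was the factor with the highest fold change in BL-41, and the BCL6 difference of BL-41 minus Namalwa (0.60, 95% interval 0.091 to 1.1, adjusted p = 0.153) did not pass.

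**Figure D2:**
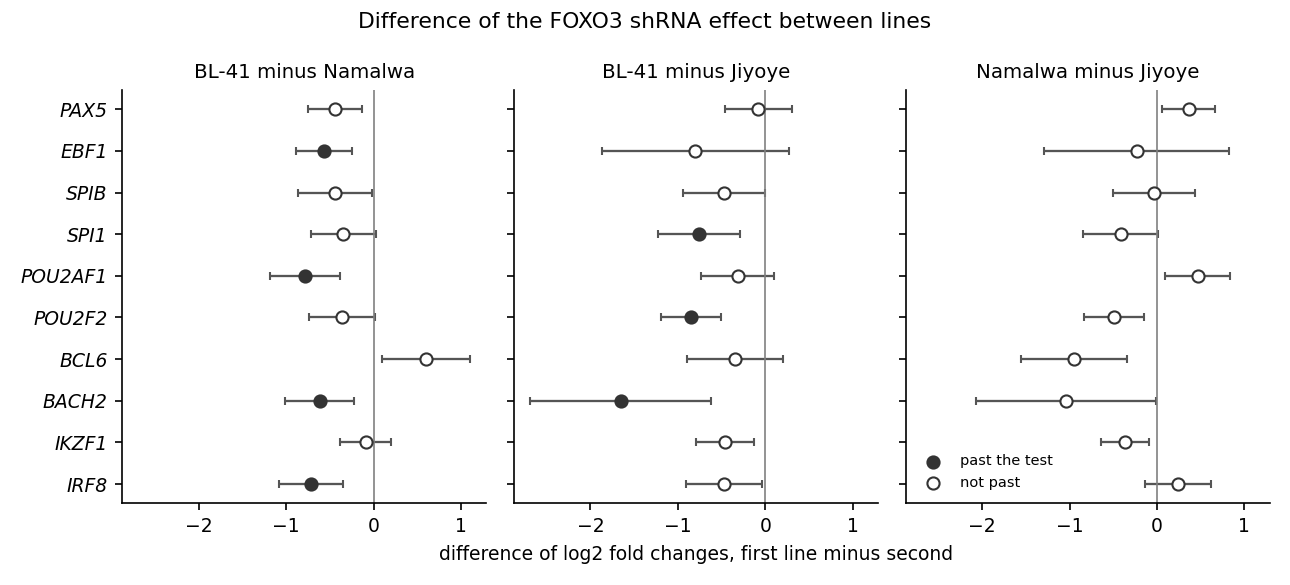
Difference of log2 fold changes between pairs of lines for the 10 factors, first line minus second, with 95% intervals. Filled points passed the z test with Benjamini-Hochberg adjustment over all genes, 4 of 10 for BL-41 minus Namalwa, 3 of 10 for BL-41 minus Jiyoye and 0 of 10 for Namalwa minus Jiyoye.

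Over the 10 factors, the effect in BL-41 minus that in Namalwa passed the test of the difference for 4 factors (EBF1, POU2AF1, BACH2, IRF8), and BL-41 was the lower line in each. Of 14789 genes tested in both lines 7.01% passed. BL-41 minus Jiyoye passed for 3 factors (SPI1, POU2F2, BACH2), again with BL-41 lower, beside 6.25% of 15419 genes. The BACH2 difference there (-1.65, 95% interval -2.68 to -0.62, adjusted p = 0.0325) rests on values of 12.4 and 6.13 in Jiyoye. Namalwa minus Jiyoye passed for 0 of 10 factors (6 at an unadjusted p under 0.05, z test), beside 2.75% of 14933 genes.

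The lines also differed in how much of each factor they held in either arm, as levels per length in ppm. The tables were normalized line by line and hold no value per library, so levels across lines are a description with no test. EBF1 and BACH2 stood at the bottom of the range in Jiyoye. EBF1 had 0.0606 ppm with FOXO3 shRNA and 0.0536 with scrambled shRNA in Jiyoye, beside 25.5 and 39.2 in BL-41 and 30.1 and 31.3 in Namalwa. BACH2 had 0.154 ppm with FOXO3 shRNA and 0.0761 with scrambled shRNA in Jiyoye, beside 51.3 and 79.7 in BL-41 and 60.2 and 61.0 in Namalwa. In normalized values EBF1 had 2.82 with FOXO3 shRNA and 2.49 with scrambled shRNA in Jiyoye, and neither its fold change (0.18, SE 0.53) nor that of BACH2 (1.02, SE 0.51) was called in the authors' deposited table. BCL6 was low in Jiyoye as well, at 3.34 ppm with FOXO3 shRNA and 2.19 with scrambled shRNA, beside 108 and 90.3 in BL-41 and 26.7 and 33.7 in Namalwa. Among 9243 genes at 100 or more with scrambled shRNA in BL-41 and in Namalwa and listed in Jiyoye, 100 (1.08%) had a scrambled value under 10 in Jiyoye and 364 (3.94%) had one under 100. EBF1 and BACH2 belong to the first set and BCL6 to the second. Of 10862 genes at 100 or more with scrambled shRNA in some line and listed in all, 2.08% had a ratio of highest to lowest line as large as that of EBF1 and 1.55% one as large as that of BACH2, while 6.93% reached that of BCL6.

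**Figure D3:**
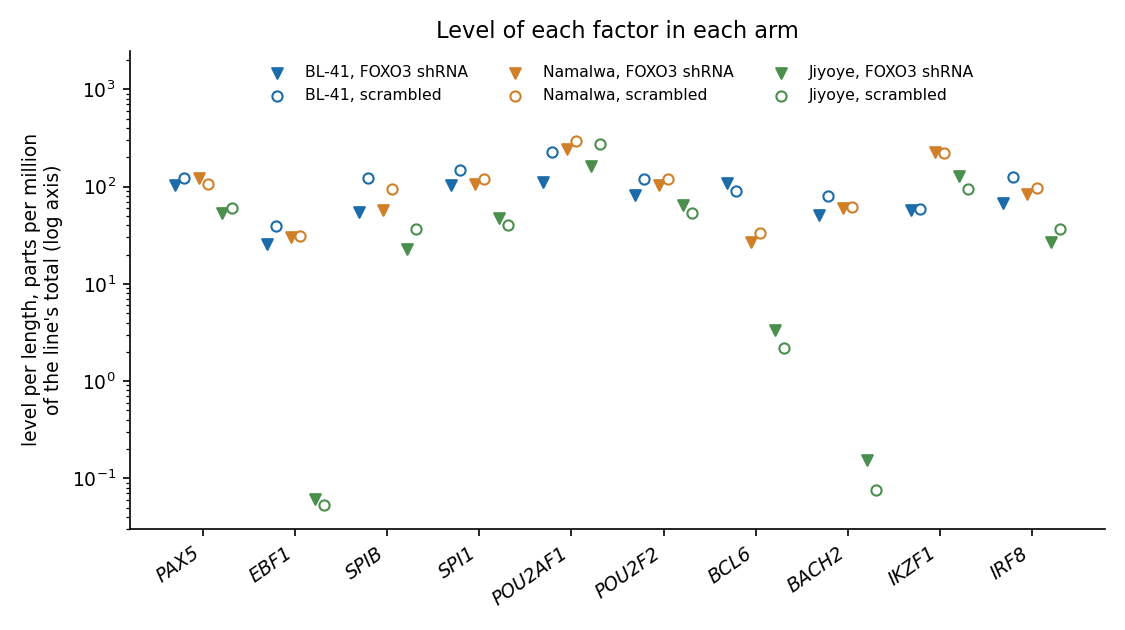
Level of each of the 10 factors per length, in ppm of the line's total on a log axis, with FOXO3 shRNA (triangles) left of scrambled shRNA (circles) in each line. EBF1 and BACH2 in Jiyoye lie at 0.154 ppm or lower and BCL6 there at 2.19 and 3.34, while every other point lies at 22.7 or higher.

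The other 7 factors were present in every line. POU2AF1 was the highest of the 10 per length in all 6 groups, with 111 ppm with FOXO3 shRNA and 229 with scrambled shRNA in BL-41, 246 and 297 in Namalwa, and 163 and 271 in Jiyoye. Its scrambled levels spanned 1.29-fold between lines, the smallest span of the 10, and 86.7% of the 10862 genes above had a span as large. IKZF1 was highest in Namalwa, at 229 ppm with FOXO3 shRNA and 219 with scrambled shRNA, beside 127 and 94.6 in Jiyoye and 57.3 and 58.5 in BL-41. PAX5 with scrambled shRNA was at 124 ppm for BL-41, 106 for Namalwa and 59.9 for Jiyoye. SPIB, SPI1 and IRF8 with scrambled shRNA were each highest in BL-41 and lowest in Jiyoye, at 123, 147 and 126 ppm in BL-41 and 36.5, 40.0 and 36.5 in Jiyoye. Spans as large as these were common, reached by 22.5%, 20.7% and 21.8% of the 10862 genes. In BL-41 the order of levels changed with the treatment. With FOXO3 shRNA BCL6 was the second highest factor after POU2AF1, and with scrambled shRNA it was the seventh. SPIB was the eighth with FOXO3 shRNA and the fifth with scrambled shRNA. Neighbours in these orders cannot be separated by a spread between libraries, since the tables give none.

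Promoter sequence was read for the factors whose values stand out. RefSeq promoter windows (GRCh38.p14) were found for 8 of the 10 factors, 12 windows in all, and not for SPI1 and POU2AF1, which are only named. The 250 bases before the start are shown for SPIB, which fell in all lines, and for EBF1, BACH2 and BCL6, which were low in Jiyoye. The SPIB window lies at chr19:50418688-50418937 on the plus strand, and the others on the minus strand at chr5:159097957-159098206 (EBF1), chr6:90296844-90297093 (BACH2) and chr3:187745469-187745718 (BCL6). On the same build the genes span chr19:50418938-50431314 (SPIB), chr5:158695920-159099916 (EBF1), chr6:89926528-90296843 (BACH2) and chr3:187721377-187745468 (BCL6). The EBF1 window belongs to a start inside the annotated gene. Lower case marks all bases outside a match to the motifs named after the sequences, and capitals mark a match.
SPIB: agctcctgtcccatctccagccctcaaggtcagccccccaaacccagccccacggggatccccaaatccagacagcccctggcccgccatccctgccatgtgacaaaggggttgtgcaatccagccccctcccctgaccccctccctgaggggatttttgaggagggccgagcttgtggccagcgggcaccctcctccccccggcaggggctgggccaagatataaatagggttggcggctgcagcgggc
EBF1: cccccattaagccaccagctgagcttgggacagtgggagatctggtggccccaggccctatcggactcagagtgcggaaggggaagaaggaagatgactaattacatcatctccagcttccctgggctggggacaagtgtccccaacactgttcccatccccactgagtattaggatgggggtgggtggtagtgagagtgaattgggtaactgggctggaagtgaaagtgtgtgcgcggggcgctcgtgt
BACH2: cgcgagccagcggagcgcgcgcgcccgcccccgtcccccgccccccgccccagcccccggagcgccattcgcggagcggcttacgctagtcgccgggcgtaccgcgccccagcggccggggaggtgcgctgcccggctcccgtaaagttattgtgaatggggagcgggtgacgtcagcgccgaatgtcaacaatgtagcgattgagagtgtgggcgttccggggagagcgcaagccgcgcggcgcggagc
BCL6: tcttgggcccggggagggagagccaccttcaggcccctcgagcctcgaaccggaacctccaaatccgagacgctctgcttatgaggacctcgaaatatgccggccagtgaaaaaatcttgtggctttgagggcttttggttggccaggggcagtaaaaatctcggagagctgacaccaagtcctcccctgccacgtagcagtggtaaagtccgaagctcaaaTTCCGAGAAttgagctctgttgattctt

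Each window was searched on both strands for the FOXO word TGTTTAC, the octamer ATGCAAAT, the ETS word AGGAAGT, the EBF palindrome, the BCL6 word TTCNNNGAA, the AP-1 and MARE core TGANTCA, which BACH2 can bind, and the tandem IRF element. Of the sequences shown, that of BCL6 held a match, TTCCGAGAA, to the BCL6 word, at 28 to 20 bases before the start, and 6.57% of 35116 windows held that word. No match in the SPIB, EBF1 and BACH2 windows says only that these letters are not there. Over the 12 windows, 0 held the FOXO word, the octamer, the EBF palindrome or the IRF element, which 2.98%, 1.63%, 1.06% and 3.02% of all windows held. A second start of BCL6 had the AP-1 and MARE core (6.57% of all windows), and a start of IKZF1 had the ETS word (7.01%). The windows differed in base composition. BACH2 had 73.6% G and C and 40 CpG pairs, SPIB 66.4% and 7, EBF1 57.2% and 6, and BCL6 54.4% and 12, beside medians of 58.0% and 11 over all windows.

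Genes that these factors are known to activate were taken as a list. It held 31 genes of the B cell receptor, its coreceptors and its signalling, with CIITA, and it was chosen with earlier results of these data known. In BL-41 18 of 31 fell and 0 rose (1 at an unadjusted p under 0.05, DESeq2), with a median log2 fold change of -0.55. In Namalwa 3 of 31 fell and 0 rose (0 at an unadjusted p under 0.05, DESeq2), with a median of -0.10. In Jiyoye 3 of 29 fell and 4 rose, with a median of -0.14. Among all genes whose mean reached 100, 20.7%, 5.76% and 12.8% fell (BL-41, Namalwa, Jiyoye) and 12.7% rose in Jiyoye, so the counts of Namalwa and Jiyoye lie near the share over all genes. BLNK, the linker of the B cell receptor, fell in all 3 lines, by 1.16, 0.31 and 0.96 on the log2 scale in BL-41, Namalwa and Jiyoye in the authors' deposited table (adjusted p = 9.37e-12, 0.0383 and 7.71e-09 by DESeq2). CD79B, a signalling chain of that receptor, fell in BL-41 (-0.84, adjusted p = 9.92e-11) and rose in Jiyoye (0.53, adjusted p = 0.000341, DESeq2) in the authors' deposited table. FCRLA, a B cell Fc receptor-like protein, fell in BL-41 (-1.08, adjusted p = 1.39e-10 by DESeq2) in the authors' deposited table. FCER2 (CD23), a marker of activated B cells, fell in Namalwa (-0.46, adjusted p = 0.0353) and rose in Jiyoye (1.20, adjusted p = 3.86e-09, DESeq2) in the authors' deposited table. P2RY10, a receptor gene controlled by PU.1 and Spi-B in mouse, fell in BL-41 (-0.57, adjusted p = 0.013) and Namalwa (-0.52, adjusted p = 0.00166, DESeq2) in the authors' deposited table. CD40, the receptor for T cell help, fell in BL-41 (-0.75, adjusted p = 0.000354) and Jiyoye (-0.79, adjusted p = 8.17e-06, DESeq2) in the authors' deposited table. The kinase SYK fell (-0.64, adjusted p = 0.00962) and CD24, whose reads near-identical copies may share, rose (0.85, adjusted p = 0.000241, DESeq2) in Jiyoye, in the authors' deposited table.

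**Figure D4:**
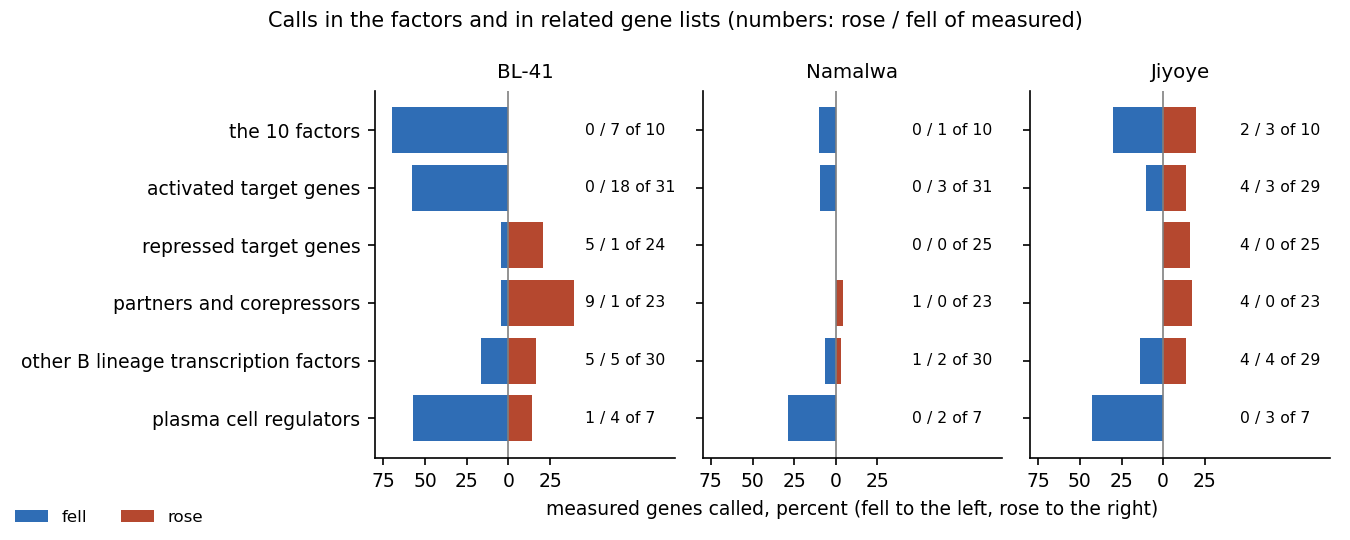
Percent of the measured genes of each list called in BL-41, Namalwa and Jiyoye, with genes that fell to the left of 0 and genes that rose to the right. Numbers beside the bars give genes that rose and fell of those measured, and 18 of 31 activated target genes and 7 of the 10 factors fell in BL-41.

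Of 24 measured genes that BCL6, BACH2 or PAX5 are known to repress, 5 rose and 1 fell in BL-41, beside 14.5% of all genes that rose and 14.2% that fell. In Namalwa 0 of 25 rose (1 at an unadjusted p under 0.05) and 0 fell (1 at an unadjusted p under 0.05, DESeq2), and in Jiyoye 4 of 25 rose and 0 fell (0 at an unadjusted p under 0.05, DESeq2), beside 2.60% and 8.69% of all genes that rose. Jiyoye genes whose mean reached 100 rose in 12.7% of cases, so the 4 that rose there are near that share. The list medians were 0.075, 0.028 and 0.12 (BL-41, Namalwa, Jiyoye). S1PR1, the receptor that guides lymphocytes out of tissue, rose in BL-41 (1.70, adjusted p = 1.58e-18 by DESeq2) in the authors' deposited table. NOTCH1, which PAX5 represses in mouse, rose in BL-41 (1.22, adjusted p = 2.16e-16) and in Jiyoye (0.57, adjusted p = 0.00243, DESeq2) in the authors' deposited table. CASP8, a caspase of death receptors, rose in BL-41 (0.92, adjusted p = 3.3e-07) and in Jiyoye (0.93, adjusted p = 6.57e-07, DESeq2) in the authors' deposited table. CDKN1A, a CDK inhibitor, fell in BL-41 (-0.56, adjusted p = 0.00421 by DESeq2) in the authors' deposited table.

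PRDM1, the target that BCL6 and BACH2 share, was not called in any line. Its values with FOXO3 shRNA and with scrambled shRNA were 229.7 and 282.5 in BL-41, 99.7 and 136.6 in Namalwa and 336.9 and 439.5 in Jiyoye. The PRDM1 log2 fold changes were -0.30 (SE 0.17), -0.45 (SE 0.24) and -0.38 (SE 0.20) in the authors' deposited table, with adjusted p from 0.199 to 0.321 by DESeq2. IRF4, which drives plasma cell fate and competes with IRF8 for partners, rose in BL-41, with 5366 under FOXO3 shRNA and 3696 under scrambled shRNA (0.54, SE 0.15, adjusted p = 0.00157 by DESeq2) in the authors' deposited table. In Jiyoye IRF4 fell, with 3433 under FOXO3 shRNA and 9723 under scrambled shRNA (-1.50, SE 0.18, adjusted p = 1.64e-14 by DESeq2) in the authors' deposited table. In Namalwa IRF4 fell, with 2210 under FOXO3 shRNA and 2948 under scrambled shRNA (-0.42, SE 0.11, adjusted p = 0.0058 by DESeq2) in the authors' deposited table. Each pair of lines differed in the IRF4 effect, by 0.95 for BL-41 minus Namalwa (adjusted p = 4.62e-05), 2.04 for BL-41 minus Jiyoye (adjusted p = 5.98e-15) and 1.09 for Namalwa minus Jiyoye (adjusted p = 0.000117). IRF8 fell in BL-41, where IRF4 rose, and both fell in Jiyoye. XBP1, a driver of secretion, fell in BL-41 (-0.63, adjusted p = 0.00016) and in Jiyoye (-0.39, adjusted p = 0.0323, DESeq2) in the authors' deposited table. Of all 7 plasma cell regulators 4 fell and 1 rose in BL-41, 2 fell and 0 rose (0 at an unadjusted p under 0.05, DESeq2) in Namalwa, and 3 fell and 0 rose (0 at an unadjusted p under 0.05, DESeq2) in Jiyoye. Over all genes 14.2%, 3.81% and 8.70% fell in these lines, and 20.7%, 5.76% and 12.8% of those whose mean reached 100. The medians of these regulators were -0.51, -0.38 and -0.33 (BL-41, Namalwa, Jiyoye). ATF6, a stress sensor of the endoplasmic reticulum, fell in BL-41 and Jiyoye, and its relative CREB3L2 fell in BL-41 and Namalwa, by 0.33 to 0.68 on the log2 scale in the authors' deposited table.

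Of 23 measured partners and corepressors, 9 rose and 1 fell in BL-41, 1 rose and 0 fell (1 at an unadjusted p under 0.05, DESeq2) in Namalwa, and 4 rose and 0 fell (1 at an unadjusted p under 0.05, DESeq2) in Jiyoye. Over all genes 14.5%, 2.60% and 8.69% rose (BL-41, Namalwa, Jiyoye), and 12.7% of genes whose mean reached 100 rose in Jiyoye, so the counts of Namalwa and Jiyoye are near these shares. The median log2 fold changes of the list were 0.20, 0.038 and 0.12 in BL-41, Namalwa and Jiyoye. HDAC7, a class IIa histone deacetylase, rose in all 3 lines, by 0.88, 0.48 and 0.73 in BL-41, Namalwa and Jiyoye in the authors' deposited table (adjusted p = 2.17e-11, 0.0137 and 1e-07 by DESeq2). TLE3, a Groucho family corepressor of the kind that PAX5 recruits, rose in BL-41 (0.68, adjusted p = 4.03e-07) and Jiyoye (0.59, adjusted p = 2.6e-06, DESeq2) in the authors' deposited table. HDAC5 rose in BL-41 (0.94, adjusted p = 3.49e-09) and HDAC3, the deacetylase of the NCOR complexes, fell there (-0.62, adjusted p = 0.000155, DESeq2) in the authors' deposited table. MAFG, a small Maf partner of BACH2, rose in BL-41 (0.80, adjusted p = 8.95e-07) and Jiyoye (0.69, adjusted p = 0.000949, DESeq2) in the authors' deposited table.

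Of 30 other transcription factors of the B lineage, 5 rose and 5 fell in BL-41, 1 rose and 2 fell in Namalwa, and of 29 in Jiyoye 4 rose and 4 fell. These counts lie near the shares over all genes, of which 14.5% rose and 14.2% fell in BL-41, 2.60% rose and 3.81% fell in Namalwa, and 8.69% rose and 8.70% fell in Jiyoye. The medians of that list were -0.14, -0.022 and 0.084 in BL-41, Namalwa and Jiyoye. ETS1, an ETS factor that restrains plasma cell fate in mouse, fell in BL-41 (-1.13, adjusted p = 5.01e-13) and Jiyoye (-1.25, adjusted p = 4.23e-14, DESeq2) in the authors' deposited table. FLI1, another ETS factor, rose in BL-41 (0.76, adjusted p = 1.22e-07) and Jiyoye (0.95, adjusted p = 7.55e-12, DESeq2) in the authors' deposited table. Of the Ikaros family, IKZF2 (Helios) fell in BL-41 (-0.75, adjusted p = 8.92e-06) and IKZF3 (Aiolos) fell in Jiyoye (-0.92, adjusted p = 4.44e-09, DESeq2), where IKZF1 rose, in the authors' deposited table. MEF2B, a driver of BCL6 expression whose reads a readthrough gene may share, fell in BL-41 (-0.82, adjusted p = 1.13e-05 by DESeq2) in the authors' deposited table. ZBTB7A, a repressor also called LRF, rose in all 3 lines, by 1.00, 0.49 and 0.84 in BL-41, Namalwa and Jiyoye in the authors' deposited table (adjusted p between 2.39e-16 and 0.000626, DESeq2). RUNX1 rose in BL-41 (0.34, adjusted p = 0.0144) and Jiyoye (0.54, adjusted p = 0.00103, DESeq2), and RUNX3 fell in Namalwa (-0.37, adjusted p = 0.0485) and Jiyoye (-0.50, adjusted p = 0.00113, DESeq2), in the authors' deposited table. KLF2, a quiescence factor of lymphocytes, rose in BL-41 (1.06, adjusted p = 1.24e-08), NFATC1 fell in Namalwa (-0.30, adjusted p = 0.0237) and STAT6 fell in Jiyoye (-0.60, adjusted p = 1.39e-05, DESeq2), in the authors' deposited table.

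Of 15 measured B cell markers, 10 fell and 1 rose in BL-41, 5 fell and 0 rose (0 at an unadjusted p under 0.05, DESeq2) in Namalwa, and 1 fell and 2 rose in Jiyoye. Beside them, 14.2% of all genes fell in BL-41, 3.81% fell in Namalwa, and 8.70% fell and 8.69% rose in Jiyoye, where the marker count is near these shares. The medians of the markers were -0.55, -0.30 and 0.068 (BL-41, Namalwa, Jiyoye). Several of these markers also stand in the list of activated targets. HLA-DRA, a chain of MHC class II, fell in BL-41 (-1.19, adjusted p = 4.92e-13) and Namalwa (-0.37, adjusted p = 0.00205, DESeq2) in the authors' deposited table. CD74, the invariant chain of MHC class II, fell in BL-41 (-1.09, adjusted p = 2.81e-13) and Namalwa (-0.37, adjusted p = 0.00824, DESeq2) in the authors' deposited table. CD38, a marker of germinal centre B cells, fell in BL-41 (-1.05, adjusted p = 1.52e-09) and Namalwa (-0.48, adjusted p = 0.0122, DESeq2) in the authors' deposited table. CD79A, the partner of CD79B, rose in Jiyoye (0.36, adjusted p = 0.0399), and MYBL1 rose in BL-41 (0.44, adjusted p = 0.0179, DESeq2) in the authors' deposited table. Of the T and NK cell markers, 0 of 13 in BL-41, 0 of 13 in Namalwa and 0 of 14 in Jiyoye were called (1, 0 and 1 at an unadjusted p under 0.05, DESeq2). Of the erythroid and stromal markers, 1 of 9 fell in BL-41 (PECAM1), 0 of 7 were called in Namalwa (0 at an unadjusted p under 0.05, DESeq2), and 2 of 9 fell in Jiyoye (KRT8 and PECAM1). The shares of all genes that fell were 14.2% in BL-41 and 8.70% in Jiyoye.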

How the data were processed

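Oligo-dT enriched messenger RNA of 18 libraries in 6 groups was sequenced, per the labels' protocols. Filtering with SOAPnuke is named in the series' design text, and the submitters' processing notes list Bowtie2, RSEM, DESeq2 and hg38 without versions. The authors deposited 1 signal value per arm and gene for each line, normalized within the line and never 0, with a log2 fold change whose value equals the ratio of the arm values (largest difference 1.39e-14). Both p-values in the deposited tables, raw and adjusted, are DESeq2's, as the series' design text says of the authors' calls. A count test, planned where counts per library were given, was not run, because the tables hold no value per library. The spread within a group is therefore seen only through the SE, recovered by dividing the fold change by the z value of its p, and 95% intervals use it.

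Effects were compared between lines with a two-sided z test, Benjamini-Hochberg adjusted over all genes listed in both, which was tested on simulated data. The simulated fold changes were drawn without moderation, so a difference of moderation between lines was not covered. They were also drawn with the recovered SE that the test itself uses, so the simulation cannot show whether that SE is right. Levels were divided by the deposited length and by the line's total, on 1 scale for both arms. Named genes are the 10 factors, FOXO3, PRDM1, IRF4, XBP1 and, per list and line, the 3 called genes with the smallest adjusted p in each direction, of which 1 is not reported here. Genes nearest in fold change were sought among genes whose mean reached 100 in every line. The factors and lists were chosen with earlier results of these data known, some genes stand in more than 1 list, and no list was tested as a set. Stricter thresholds, an adjustment limited to genes whose mean reached 100, centred fold changes and raised SE were tried. Gene positions are from RefSeq (GRCh38.p14). The software was scipy 1.17.1, pandas 2.3.3, numpy 2.4.6 and, for plots, matplotlib 3.10.9 under Python 3.11.15.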

Additional observations from a re-analysis of the deposited data

Results flagged for a closer look

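The FOXO3 shRNA effect on 6 of the factors differed between lines by the z test of the difference, after Benjamini-Hochberg adjustment over all genes. For BL-41 minus Namalwa the log2 difference was -0.57 for EBF1, -0.78 for POU2AF1, -0.62 for BACH2 and -0.71 for IRF8. For BL-41 minus Jiyoye it was -0.76 for SPI1, -0.85 for POU2F2 and -1.65 for BACH2. BL-41 was the lower line in all 7 of these differences. FOXO3 itself fell by 0.79 in BL-41 and by 1.09 in Namalwa on the log2 scale in the authors' deposited table, while Jiyoye gave no call for it (-0.30), and the part of the depth of knockdown in these differences was not tested. BACH2 in Jiyoye had values of 12.4 with FOXO3 shRNA and 6.13 with scrambled shRNA, with an SE of 0.51 for its fold change.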

How the results depend on the processing

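Requiring the log2 fold change to reach 1 in size left 2 called factors in BL-41 (SPIB and POU2AF1), 0 in Namalwa and 0 in Jiyoye. At an adjusted p under 0.01 by DESeq2, 3 factors stayed called in Jiyoye (IRF8 and POU2F2 were lost), while BL-41 kept 7 and Namalwa 1. The same threshold left 2 differences for BL-41 minus Namalwa (POU2AF1, IRF8) and 1 for BL-41 minus Jiyoye (POU2F2). The median of the factors in Jiyoye turned to -0.16 over the 7 with a mean of at least 100, from which EBF1, BACH2 and BCL6 are left out. Limiting the adjustment to genes whose mean reached 100 left out BACH2 in Jiyoye, so 2 differences passed for BL-41 minus Jiyoye there. Centring on each line's median changed no call of a factor or difference, and raising low SE changed no difference. Over single factors, 104 alternative values in a line and 110 differences kept their side of the threshold and direction, while 13 and 4 lost the call with the direction kept. A factor or difference not called at 0.05 cannot be called under a stricter threshold, so part of the kept values was fixed in advance. Factors with a call to lose numbered 7 for BL-41, 1 for Namalwa and 5 for Jiyoye. The fold threshold took 11 of the lost calls and the adjusted p under 0.01 took 6. No paired analysis was possible because the tables hold no value per library. For the same reason, edgeR and fits without a replicate were not run. Moderation understates changes of low genes, so the fold changes of EBF1 and BACH2 in Jiyoye say little.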

Other observations

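EBF1, BACH2 and BCL6 were not alone in their low level in Jiyoye. Among the B cell markers LMO2, a germinal centre factor, had 10.8 with FOXO3 shRNA and 4.72 with scrambled shRNA in Jiyoye, beside 394.3 and 438.1 in BL-41 and 235.0 and 199.7 in Namalwa. Of 29 other B lineage factors at 100 or more with scrambled shRNA in BL-41 and Namalwa, LEF1 and KLF2 were under 100 in Jiyoye, and of 26 activated targets LY9 and FCGR2B were. RAG2, also among these 26 targets, was not listed in Jiyoye at all. It had 128.4 with FOXO3 shRNA and 382.7 with scrambled shRNA in BL-41, and 364.4 and 522.6 in Namalwa. These genes were chosen after their values were seen.

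The fold changes nearest to the medians of the 10 factors (-0.59 in BL-41, -0.18 in Namalwa, 0.21 in Jiyoye) were those of P2RX7, TNFRSF21, TMEM177, SLC15A3 and PTAFR, at Euclidean distances of 0.031 to 0.069 among 8863 genes. Nearest to SPIB were BLVRB (0.073) and C15orf41 (0.090). Of the 8863 genes, 67 lay within 0.2 of the median pattern and 17 within that distance of SPIB. The Jiyoye median rests in part on EBF1, BACH2 and BCL6, whose values there were low.

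The gene length deposited for IKZF1 was 4941 bases for BL-41, 5562 for Namalwa and 5373 for Jiyoye, a spread of 12.6%, which was matched by 2.84% of the 8870 genes whose mean reached 100 in every line. For POU2F2 the spread was 3.18% (6775, 6685 and 6566 bases), and for POU2AF1 and IRF8 it was 0. The median over those genes was 0.142%.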
